A study of Mus musculus with 8 samples.

Results

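The genes described here are 9 genes of B cell precursors, Vpreb1, Vpreb3, Igll1, Cd79a, Cd79b, Rag1, Ebf1, Pax5 and Blnk, measured in newborn mouse liver, of 18193 genes in all. Each was read by every probe set (a group of array probes for a transcript) that the array annotation gives to exactly 1 of these symbols, which made 15 of the 45037 probe sets tested. Total RNA of whole livers from 8 mice aged 2 days was hybridised to Affymetrix arrays, 1 array per sample: 4 Mfp2 -/- livers (KO 1 to KO 4) and 4 WT livers (WT 1 to WT 4). Mfp2, encoded by Hsd17b4, is an enzyme of peroxisomes, where it acts on very long chain fatty acids and on bile acid precursors. The labels name neither the strain nor the sex nor the litters, and do not say how the allele was made. The design text speaks of 4 KO and 4 WT mice, so each array was taken as 1 mouse.

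B cells arise in the liver of the mouse before birth and around it, until bone marrow takes over. A committed precursor first opens its immunoglobulin genes under the transcription factors Ebf1 and Pax5 and cuts them with the Rag recombinase. A finished heavy chain is then tested on the cell surface with a stand-in light chain, made of the Vpreb1 and Igll1 proteins, and signals through Cd79a, Cd79b and the adaptor Blnk. In RNA of whole tissue, fewer B cell precursors and less RNA per precursor cannot be told apart.

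None of the 9 genes passed the threshold used between KO and WT livers, a limma adjusted p under 0.05 over all probe sets. Of all genes 1.15% passed it. By the brightest probe set of each gene, Vpreb1, Igll1 and Ebf1 had the largest differences, with KO means 0.63 to 0.68 lower on the log2 scale. The second Igll1 probe set and the 4 other Ebf1 probe sets ran from -0.34 to 0.13, and no Ebf1 probe set is shown to be above background. By the brightest probe sets 8 of the 9 genes had lower KO means, as did 46.7% of all genes. The WT livers were more spread than the KO livers for 8 of the 9 genes. WT 1 was the highest of all 8 livers for 8 of the 9 genes, while KO 2 and WT 2 were each the lowest for 3. The same counts of spread and of highest and lowest livers are not given over all genes. They are thus not shown to be particular to the 9 genes. When limma weighted the arrays, WT 1 had the lowest weight of the 8 (0.60) and WT 4 the highest (1.60). The targeted gene matched the labels. Hsd17b4 averaged 3.84 ± 0.45 (SD, n = 4) in KO and 8.50 ± 0.40 in WT livers, a difference of -4.66 ± 0.25 (SE, limma adjusted p = 0.0001004).

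Promoter windows of 3 members are shown because Vpreb1 and Igll1 encode the parts of the surrogate light chain, lie next to each other on chromosome 16 with 0 annotated genes between them, and varied together across livers, while Cd79a represents the signalling chains. The windows come from RefSeq (GRCm38.p6), 250 bases before to 50 after the gene's start, 5′ to 3′ on the gene's strand. They are chr16:16869206-16869505 (minus strand) for Vpreb1, chr16:16863936-16864235 (minus strand) for Igll1 and chr7:24897247-24897546 (plus strand) for Cd79a. Capitals mark matches to the motifs searched on both strands, which were CCCNNGGG (the core of sites of Ebf1), TGGGAA (Ikaros type), and CAGCTG and CAGGTG (both of E2A type).
Vpreb1: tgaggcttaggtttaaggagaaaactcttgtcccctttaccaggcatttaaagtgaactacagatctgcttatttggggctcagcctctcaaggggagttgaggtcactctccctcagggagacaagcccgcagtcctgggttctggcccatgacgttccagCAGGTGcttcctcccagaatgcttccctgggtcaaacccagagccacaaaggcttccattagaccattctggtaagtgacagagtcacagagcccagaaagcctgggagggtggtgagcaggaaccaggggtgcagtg
Igll1: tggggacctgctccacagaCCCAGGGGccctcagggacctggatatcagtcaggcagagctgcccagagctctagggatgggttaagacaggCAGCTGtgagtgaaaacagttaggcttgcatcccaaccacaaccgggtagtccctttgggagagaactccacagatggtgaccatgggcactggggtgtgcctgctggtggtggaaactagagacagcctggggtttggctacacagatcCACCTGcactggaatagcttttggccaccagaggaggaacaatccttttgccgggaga
Cd79a: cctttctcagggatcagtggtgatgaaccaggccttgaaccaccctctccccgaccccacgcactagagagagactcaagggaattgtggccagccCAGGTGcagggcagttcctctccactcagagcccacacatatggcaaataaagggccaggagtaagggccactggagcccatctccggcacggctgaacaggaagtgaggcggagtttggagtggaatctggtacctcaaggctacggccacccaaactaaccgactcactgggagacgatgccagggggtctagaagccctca

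Windows were found for 8 of the 9 members, with 9 windows in all because Ebf1 has several starts. Vpreb1 held CAGGTG at position -88 from the start, and Cd79a held it at -154. Igll1 held CCCNNGGG at -231, CAGCTG at -158 and CAGGTG, read on the other strand, at -8, and no matches overlapped in these 3 windows. CCCNNGGG was found in 1 of the 9 member windows, against 13.7% of 32851 mouse windows of the same length, TGGGAA in 2 against 25.6%, CAGCTG in 2 against 16.3% and CAGGTG in 5 against 20.2%. Such matches are descriptions of letters and do not show that a factor binds.

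The surrogate light chain genes were read first. Vpreb1 (probe set 1449869_at), the V-like part of the surrogate light chain, had log2 values of 3.83, 3.14, 3.72 and 3.84 in KO 1 to KO 4, against 4.74, 3.83, 4.50 and 4.17 in WT 1 to WT 4. WT 1, WT 3 and WT 4 lay above every KO liver, while WT 2 lay among the KO livers, so the groups overlapped. The means were 3.63 ± 0.33 in KO and 4.31 ± 0.40 in WT livers (SD, n = 4 each). The difference was -0.68 ± 0.22 (SE, 95% interval -1.16 to -0.20), with a limma adjusted p of 0.228 and an unadjusted p of 0.0107. Its mean lay at the 54.0 percentile of all probe sets, and the KO mean of 3.63 was below the median of all probe set means, 3.70. No fold is given, since a KO level above background was not established and the difference may be understated. A 2-sided exact permutation test over the 8 livers gave p = 0.0857, where 4 against 4 livers allow no p below 0.0286.

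Igll1, the constant-region-like part (lambda 5), had values of 5.30, 4.73, 5.64 and 5.48 in KO 1 to KO 4, against 6.59, 5.32, 6.14 and 5.81 in WT 1 to WT 4. The order of the livers resembled that of Vpreb1, with KO 2 lowest, WT 1 highest and WT 2 among the KO livers. KO livers averaged 5.29 ± 0.40 and WT livers 5.97 ± 0.54 (SD, n = 4 each), a difference of -0.68 ± 0.27 (SE, 95% interval -1.28 to -0.07, limma adjusted p = 0.359, exact permutation p = 0.0857). This probe set, 1420176_x_at, is of a type whose probes may also match other sequences. The second Igll1 probe set, 1420177_at, differed by 0.13 ± 0.16 and lay at the 29.1 percentile of all probe set means, where expression is not shown. The 2 probe sets of Igll1 thus disagreed in sign.

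Vpreb3 (1422921_at), a relative of Vpreb1 that binds immunoglobulin chains inside pre-B cells, had 6.05, 5.89, 6.04 and 5.99 in KO 1 to KO 4, against 6.84, 5.80, 6.53 and 5.88 in WT 1 to WT 4. The KO livers lay close together and inside the range of the WT livers, with an SD of 0.075 in KO and 0.50 in WT livers. The difference was -0.27 ± 0.21 (SE, 95% interval -0.75 to 0.20, limma adjusted p = 0.705). It was -0.08 without WT 1 and -0.43 without WT 2. A further probe set, 1422416_s_at, is annotated to both Vpreb1 and Vpreb2 and was left out by the rule. It averaged 3.96 ± 0.28 in KO and 4.31 ± 0.55 in WT livers (SD, n = 4 each). Its difference was -0.36 ± 0.25 (SE, limma adjusted p = 0.666), against -0.68 for 1449869_at, which is annotated to Vpreb1 alone.

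**Figure D1:**
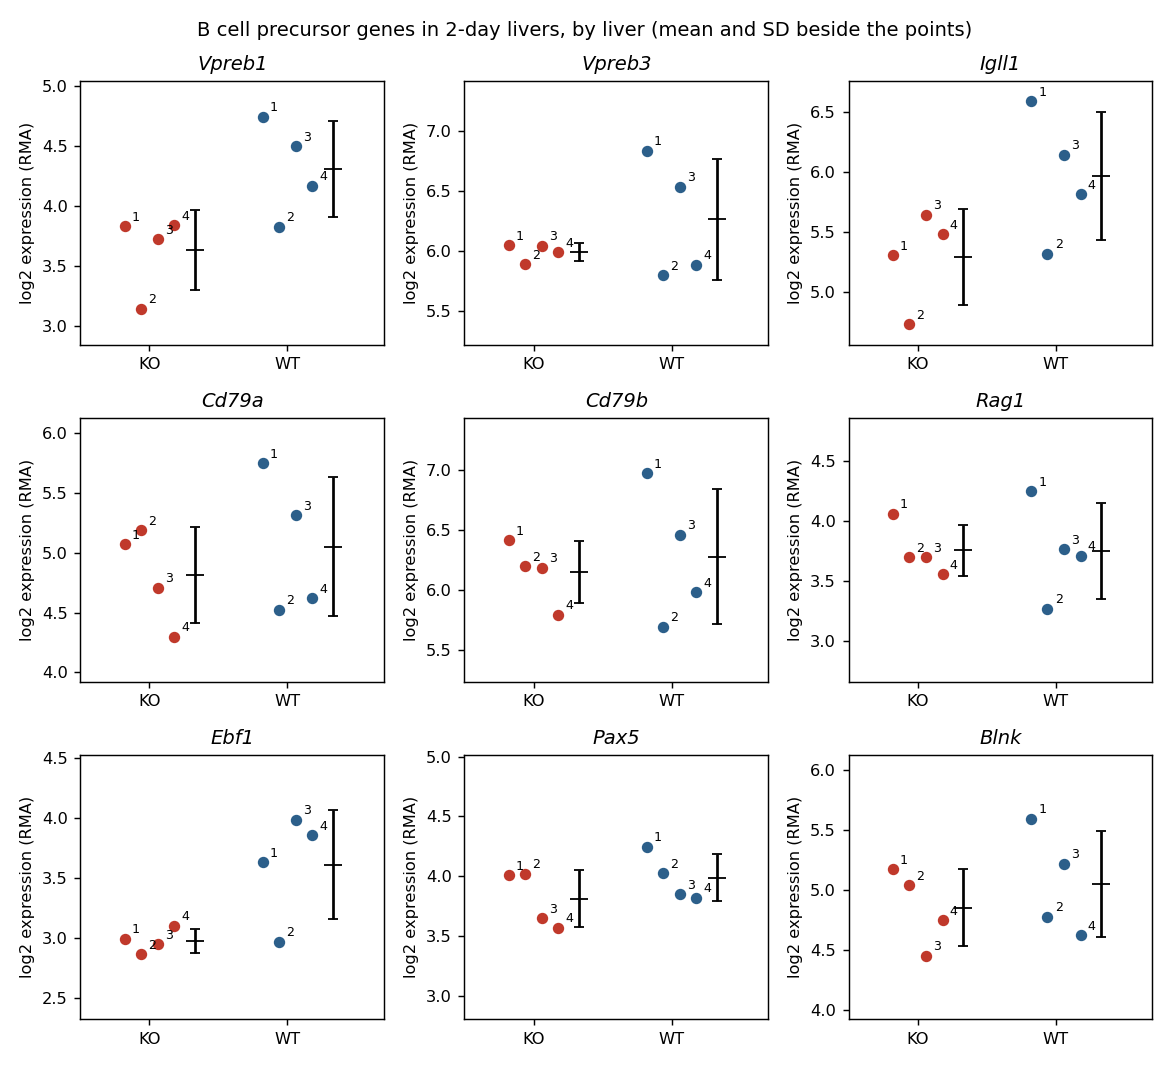
Log2 expression (RMA) of the 9 genes in each liver, 1 probe set per gene (the one with the highest mean), KO left of WT, numbered by replicate, with the group mean and SD beside the points. All panels span the same log2 range. KO and WT points overlap in all 9 panels, and WT 1 is the highest point in 8 of them.

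The signalling chains of the pre-B receptor came next in the pathway, and whether their differences were smaller than those of the surrogate light chain was not tested. Cd79a (Ig-alpha, 1418830_at) had 5.07, 5.19, 4.71 and 4.30 in KO 1 to KO 4, against 5.75, 4.52, 5.31 and 4.62 in WT 1 to WT 4. The groups were interleaved, with KO 4 lowest and WT 1 highest. Its difference was -0.24 ± 0.29 (SE, 95% interval -0.87 to 0.40, limma adjusted p = 0.831). With 1 liver left out it ran from -0.41 without WT 2 to -0.0039 without WT 1, and it was -0.06 without KO 4.

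Cd79b (Ig-beta, 1417640_at), its partner chain, had 6.42, 6.20, 6.19 and 5.79 in KO 1 to KO 4, against 6.98, 5.69, 6.46 and 5.98 in WT 1 to WT 4. WT livers were the highest and the lowest. The difference was -0.13 ± 0.25 (SE, 95% interval -0.69 to 0.44, limma adjusted p = 0.909), and without WT 1 its sign turned, to 0.11, while without WT 2 it was -0.32. Blnk (1451780_at), the adaptor that links the receptor to downstream kinases and phospholipase, averaged 4.85 ± 0.32 in KO and 5.05 ± 0.44 in WT livers (SD, n = 4 each), a difference of -0.20 ± 0.23 (SE, limma adjusted p = 0.813). With 1 liver left out it ran from -0.35 without WT 4 to -0.02 without WT 1. For these 3 genes the intervals reach from a KO level well below WT to one above it, so that equality is not shown either.

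Rag1 (1450680_at), which cuts immunoglobulin and T cell receptor genes, had 4.06, 3.70, 3.70 and 3.56 in KO 1 to KO 4, against 4.25, 3.27, 3.77 and 3.71 in WT 1 to WT 4. The group means were nearly the same, with a difference of 0.01 ± 0.19 (SE, 95% interval -0.42 to 0.44, limma adjusted p = 0.995). It was 0.17 without WT 1 and -0.15 without WT 2. Its mean lay at the 50.8 percentile of all probe sets, so changes in its level may be understated.

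Ebf1, the factor that sets the B cell programme, is read by 5 probe sets, each with a mean below the median of all probe sets (23.6 to 43.1 percentile). The brightest, 1416301_a_at, had 2.99, 2.86, 2.95 and 3.10 in KO 1 to KO 4, against 3.63, 2.97, 3.99 and 3.86 in WT 1 to WT 4. As with Vpreb1, the WT livers 1, 3 and 4 lay above every KO liver and WT 2 lay among them. KO livers averaged 2.98 ± 0.10 and WT livers 3.61 ± 0.45 (SD, n = 4 each), a difference of -0.63 ± 0.20 (SE, 95% interval -1.07 to -0.20, limma adjusted p = 0.213, exact permutation p = 0.0857).

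Without WT 2 this Ebf1 probe set passed, at -0.85 with a limma adjusted p of 0.0328, and within replicates 3 and 4 alone it also passed, at -0.90 (0.0465). Both of those fits leave out WT 2. Within replicates 1 and 2 alone it was -0.37 with a limma adjusted p of 0.998. The 4 dimmer Ebf1 probe sets differed by -0.34 (1448293_at), -0.24 (1439789_at), -0.10 (1416302_at) and 0.06 (1457441_at), with limma adjusted p between 0.428 and 0.918, so they did not all share its direction. Expression above background is not shown for values this low.

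Pax5, the factor that holds cells to the B lineage, has 2 probe sets. The brighter one, 1454401_at, had 4.01, 4.02, 3.65 and 3.57 in KO 1 to KO 4, against 4.25, 4.03, 3.85 and 3.82 in WT 1 to WT 4. Its difference was -0.17 ± 0.14 (SE, 95% interval -0.49 to 0.14, limma adjusted p = 0.721), with overlapping groups, and it was -0.09 without WT 1. The dimmer one, 1421765_at, differed by -0.01 ± 0.09 (SE, limma adjusted p = 0.991). Their means lay at the 53.0 and 30.6 percentile of all probe sets, so changes in the level of Pax5 may be understated.

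**Figure D2:**
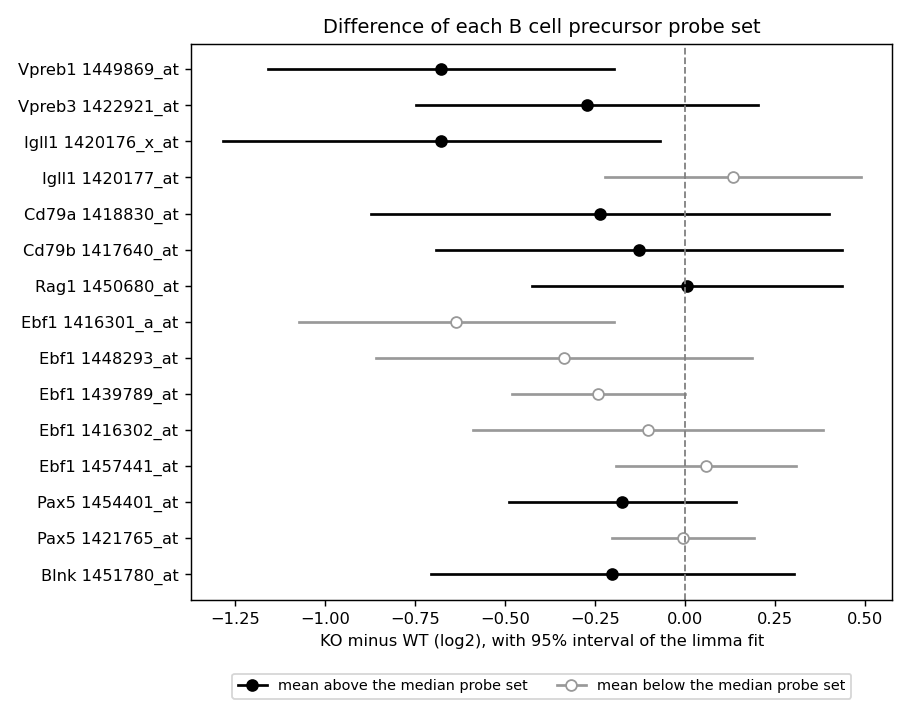
KO minus WT (log2, x axis) of the 15 probe sets, with the 95% interval of the limma fit; filled points have a mean above the median probe set and open grey points lie below it. The intervals of Vpreb1, the brighter Igll1 and the brightest Ebf1 probe set lie below 0, unadjusted for the number of probe sets.

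Counted together, 0 of the 15 member probe sets passed the limma threshold, where 0.762% of all probe sets did. At an unadjusted limma p under 0.05, 3 of the 15 were lower in KO livers and 0 were higher, against 6.54% lower and 5.17% higher among all probe sets. The KO and WT values of 0 of the 15 lay apart without overlap, against 6.9% of all probe sets. With 1 probe set per gene the median difference of the 9 genes was -0.24, against 0.01 for all 18193 genes. Of the 9 genes 8 had lower KO means, as did 46.7% of all genes.

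That median depended on single WT livers. It was -0.08 without WT 1, -0.41 without WT 2 and -0.38 without WT 4, and between -0.31 and -0.17 without each of the other 5 livers. Within replicates 1 and 2 it was -0.12, and within replicates 3 and 4 it was -0.32. Vpreb1 differed by -0.80 and -0.56 in these sets, and Igll1 by -0.94 and -0.41. Vpreb1 and the brighter Igll1 probe set had lower KO means in each of the fits that left out 1 liver, with differences of -0.84 to -0.51 and -0.89 to -0.47, and passed the threshold in none of them.

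**Figure D3:**
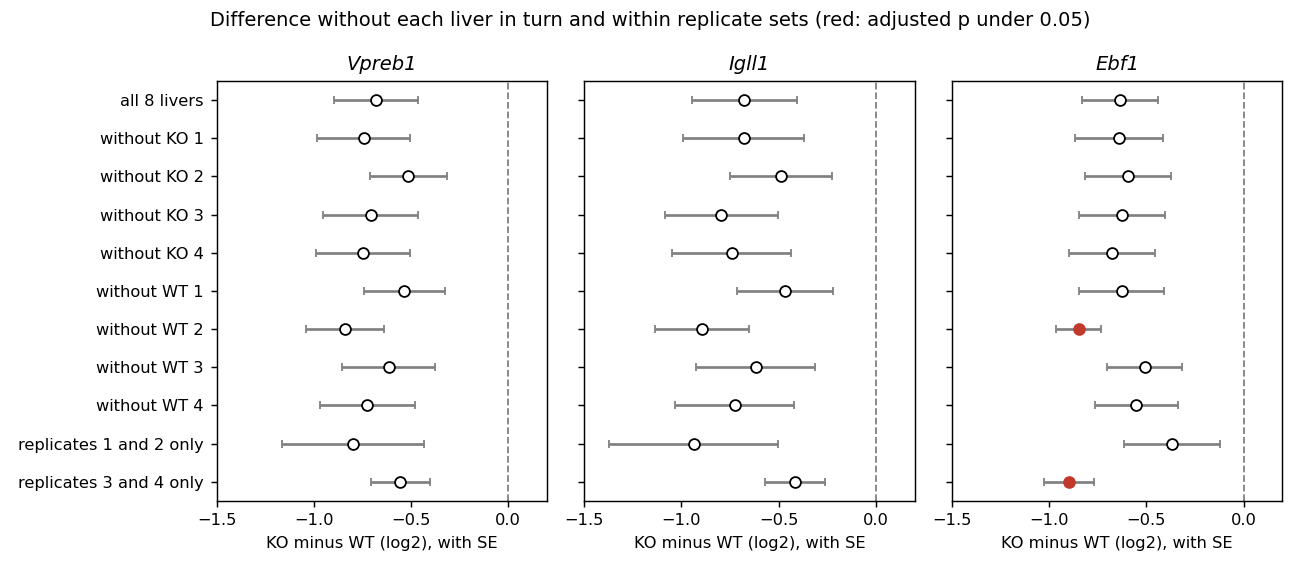
KO minus WT (log2, x axis, with SE) of Vpreb1, Igll1 (1420176_x_at) and Ebf1 (1416301_a_at) with all 8 livers, without each liver in turn and within 2 sets of replicates. The points lie between -0.94 and -0.37, and the 2 red points, both of Ebf1, are those with an adjusted p under 0.05.

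Most of the 9 genes varied alike from liver to liver. Each value was set against its own group's mean, so that the genotype difference was removed, and the genes were compared in pairs over the 8 livers. Of 36 pairs 33 had a positive Pearson r, with a median of 0.65, and without WT 1 the median was 0.57 with 31 positive. The closest pair was Vpreb1 and Igll1 (r = 0.95, and 0.93 without WT 1), followed by Cd79a and Cd79b (0.94 and 0.91). The 3 negative pairs all held Pax5, with Vpreb1 (-0.08, and -0.48 without WT 1), Igll1 (-0.13 and -0.63) and Ebf1 (-0.37 and -0.45). Pax5 also had positive pairs, the closest with Blnk (0.74 and 0.62) and Cd79a (0.71 and 0.59). The same count over pairs of other genes was not made. These are descriptions over 8 livers in 2 groups, and the values of a liver share its RNA and array.

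**Figure D4:**
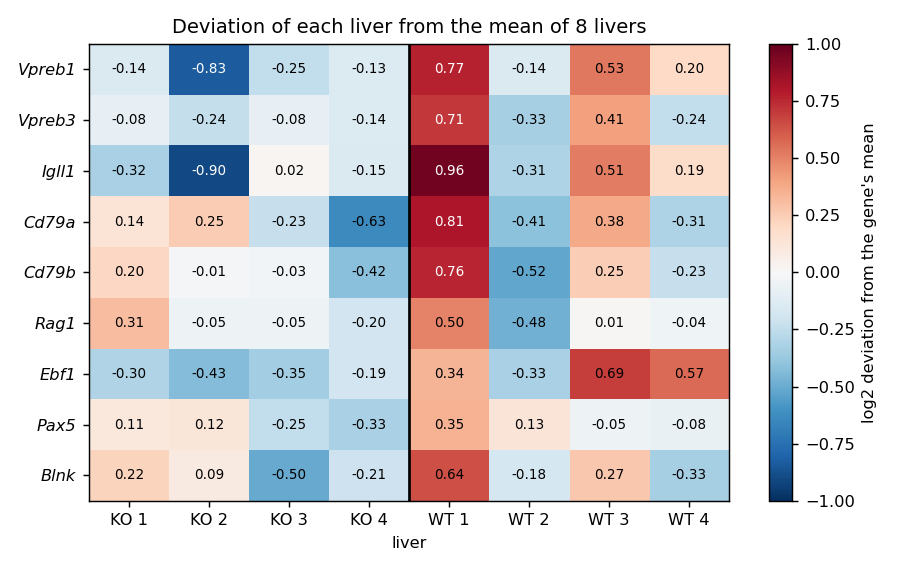
Deviation of each liver (columns, KO left of WT) from a gene's mean over the 8 livers (rows, log2), red above and blue below. WT 1 is above the mean for all 9 genes, WT 3 for 8, and KO 4 for 0.

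The lists of related genes give the surroundings of this pattern. Of 6 lists of early B cell, immunoglobulin, receptor signalling, transcription factor, later B cell and stromal support genes, 0 genes passed the limma threshold, against 1.15% of all genes, of which 0.841% were lower in KO livers. The medians of the 6 lists lay between -0.13 and 0.03. Lower KO means were found for 8 of 11 early B cell, 3 of 3 immunoglobulin, 9 of 13 receptor signalling, 11 of 19 transcription factor, 8 of 14 later B cell and 3 of 7 stromal support genes, against 46.7% of all genes. In the early B cell list 2 genes were lower at an unadjusted limma p under 0.05, against 8.18% of all genes. Cd24a, a surface protein of early B cells that red cell precursors also carry, had the lowest p, at 11.72, 11.78, 11.29 and 11.30 in KO 1 to KO 4, against 12.14, 12.12, 12.14 and 12.03 in WT 1 to WT 4. Its groups did not overlap, with a difference of -0.58 ± 0.13 (SE, limma adjusted p = 0.0826).

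In the later B cell list Tnfrsf13c, the receptor of the survival factor BAFF, had 4.86, 5.16, 4.36 and 3.95 in KO 1 to KO 4, against 6.37, 5.75, 5.76 and 5.35 in WT 1 to WT 4. Every KO liver lay below every WT liver. The difference of -1.22 ± 0.28 (SE) was larger than that of any of the 9 members and had a limma adjusted p of 0.0864. The other 13 measured genes of that list each had an adjusted p of 0.508 or more.

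In receptor signalling Pik3ap1, an adaptor of phosphoinositide 3-kinase, had the lowest p, with a higher KO mean by 0.53 ± 0.14 (SE, limma adjusted p = 0.136). Prkcb of the same list, chosen after its values were seen, went the other way, at -0.50 ± 0.14 (SE, limma adjusted p = 0.169). The median of that list was -0.06. Among 19 measured transcription factors Bcl11a, needed for early B cells, had the lowest p, at -0.43 ± 0.19 (SE, limma adjusted p = 0.416). Of the immunoglobulin list 3 genes were found by symbol, and Igk had the lowest p, at -0.13 ± 0.11 (SE, limma adjusted p = 0.733). Of the 7 stromal support genes Dlk1, a surface protein of hepatoblasts, had the lowest p, at 0.50 ± 0.23 (SE, limma adjusted p = 0.452). Thus no gene of the related lists passed the threshold. The lowest limma adjusted p among them were those of Cd24a (0.0826) and Tnfrsf13c (0.0864). In the lists of this paragraph the lowest ran from 0.136 to 0.733.

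Ighm and Pou2af1 were chosen after their values were seen, because they follow the members across livers. Ighm, the heavy chain of IgM, had 7.82, 7.94, 7.93 and 7.41 in KO 1 to KO 4, against 8.65, 7.55, 8.36 and 7.57 in WT 1 to WT 4. Pou2af1, a B cell co-activator, had 6.14, 5.74, 5.66 and 5.21 in KO 1 to KO 4, against 7.07, 5.67, 6.46 and 5.80 in WT 1 to WT 4. Both were highest in WT 1 and next highest in WT 3, as were Vpreb1, Vpreb3, Igll1, Cd79a, Cd79b and Blnk, but not Rag1, Ebf1 or Pax5. Their differences were -0.26 ± 0.25 and -0.56 ± 0.30 (SE, limma adjusted p 0.772 and 0.539).

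Among 11806 other genes with a mean above the median, the 5 whose deviations from the group means were most like the average of the members were 1700037C18Rik, Prmt9, Cit, Rptor and Guk1, with Pearson r between 0.96 and 0.97 over 8 livers. Pou2af1 ranked 13 with r = 0.95, and Ighm ranked 103 with r = 0.88. With 8 livers many genes reach such values, so the ranking describes these arrays only. Of the 5 genes Cit, a kinase of cell division, came nearest the threshold, at -0.44 ± 0.09 (SE, limma adjusted p = 0.0666). Among the related lists Inpp5d, Spib and Syk ranked between Pou2af1 and Ighm. Other genes of those lists did not follow the members, such as Rag2 (r = -0.19) and Enpep (r = -0.35). These genes too were chosen after their values were seen.

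Genes of other cells and states passed in 2 of 10 lists. Of 12 measured erythroid markers 4 passed and were lower in KO livers, against 0.841% of all genes. All 12 had lower KO means, with a median of -0.84, where 46.7% of all genes had lower KO means. Those 4 were Trim10 at -1.32, Hemgn at -0.85, Rhag, a membrane protein of the Rh complex, at -0.80 and Ermap, a red cell surface protein, at -0.76, with limma adjusted p between 0.0366 and 0.0480. The mean of that list lay between 8.08 and 8.82 in KO livers and between 9.19 and 9.38 in WT livers. Of 13 proliferation genes 4 passed, also lower, against the same 0.841%. They were Rrm2, which makes deoxynucleotides, at -1.02, Birc5 at -0.86, the mitotic kinase Plk1 at -0.84 and the cyclin Ccna2 at -0.82, with limma adjusted p between 0.0278 and 0.0439. The median of that list was -0.79, with list means of 7.51 to 8.03 in KO and 8.45 to 8.66 in WT livers. The members' list mean overlapped, at 4.49 to 4.77 in KO and 4.47 to 5.40 in WT livers. The part of erythroid and dividing cells in the members' values was not tested.

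In the 8 other marker lists 0 genes passed the limma threshold. T cell markers had a median of 0.04 over 12 genes and list means of 3.62 to 3.77 in KO and 3.59 to 3.80 in WT livers. The other medians were -0.24 for neutrophil, -0.13 for megakaryocyte, -0.03 for plasmacytoid dendritic, -0.02 for natural killer, 0.04 for blood stem and progenitor, 0.12 for macrophage and 0.13 for hepatocyte markers. Lower KO means were found for 5 of 12 T cell, 9 of 12 neutrophil, 4 of 7 megakaryocyte, 5 of 7 plasmacytoid dendritic, 5 of 9 natural killer, 3 of 8 stem and progenitor, 4 of 12 macrophage and 2 of 10 hepatocyte genes, against the same 46.7%. The hepatocyte count and median include Trh (difference 0.12), a different gene that was matched by synonym to the planned marker Trf. The genes with the lowest p of these lists were Bcl11b (T cell, 0.33), Nkg7 (natural killer, -0.59), Tlr7 (plasmacytoid dendritic, 0.37), Meis1 (stem and progenitor, 0.43), Ltf (neutrophil, -0.47), C1qa (macrophage, 0.37), Itga2b (megakaryocyte, 0.20) and Fgb (hepatocyte, 0.31), each with its log2 difference. Their limma adjusted p lay between 0.187 and 0.517. The defining hepatocyte markers lay near the top of the scale, with Alb at 13.48 in KO and 13.52 in WT livers and Apoa1 at 13.55 in KO and 13.42 in WT livers.

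**Figure D5:**
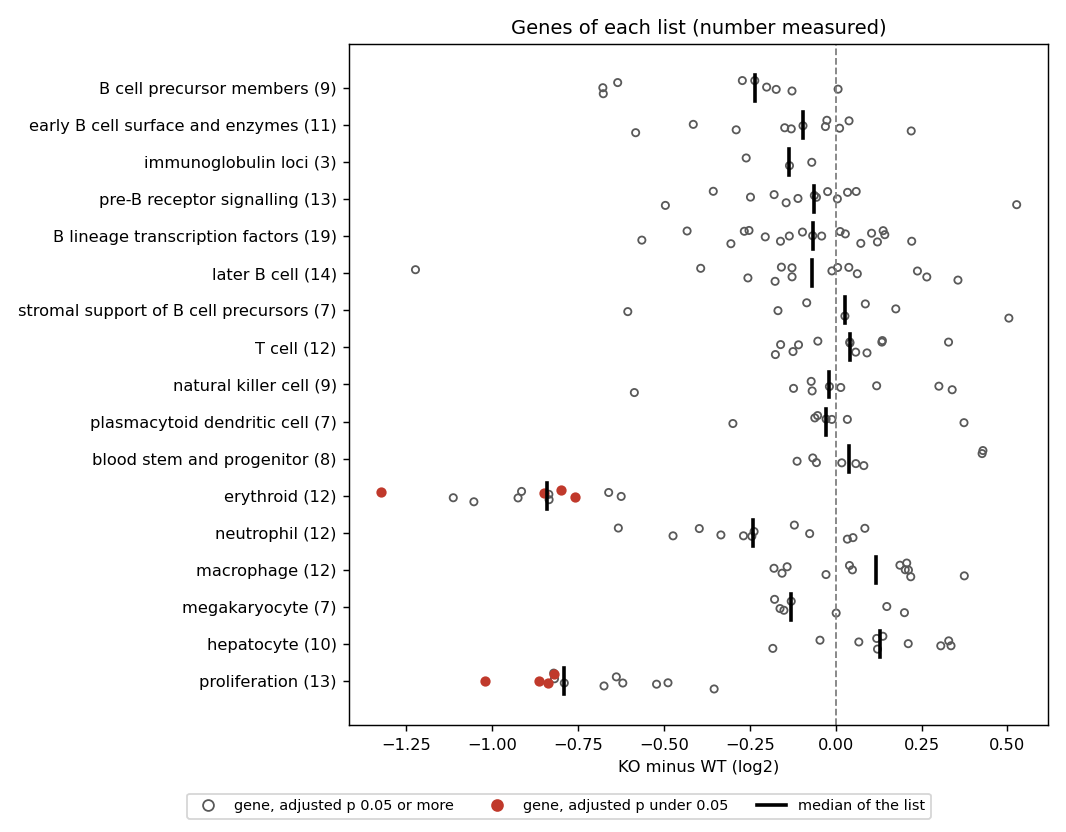
KO minus WT (log2, x axis) of every measured gene of the 9 members and of each list, with the number of genes in parentheses; black bars are medians and red points have an adjusted p under 0.05. Red points occur in the erythroid and proliferation lists, and the bars of the 7 lists from the members to stromal support lie between -0.24 and 0.03. The hepatocyte list includes Trh, matched by synonym to the planned marker Trf.

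Correlations between arrays over all probe sets were 0.983 to 0.993 within groups and 0.976 to 0.989 across them. Xist, high in females, was high in KO 1, KO 2 and WT 3, and with its value as a covariate Vpreb1 differed by -0.63 and Igll1 by -0.59 (limma adjusted p 0.308 and 0.466). RNA quality, read as the actin control's 3′ minus 5′ difference, averaged 0.704 ± 0.122 in KO and 0.619 ± 0.069 in WT livers (SD, n = 4 each, exact permutation p = 0.343). By the GAPDH control it averaged -0.083 ± 0.118 in KO and -0.068 ± 0.044 in WT livers (SD, n = 4 each, exact permutation p = 0.886).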

How the data were processed

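The values are log2 expression from RMA, which the authors ran before deposit, per the submitters' processing notes. In general RMA subtracts background, makes the probe values of all arrays follow 1 distribution and combines the probes of a set. The scale follows from their range of 1.11 to 13.70. No source used here gives the software, settings or genome build. The shared distribution hides a change of total mRNA and understates differences of dim probe sets. Arrays give no read depth, and their number limits the precision. Per the labels' protocols, Trizol was used for extraction and biotin as the label.

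The file lists 45101 probe sets, of which 64 are array controls and were not tested. The array annotation pairs 34945 with 1 gene, 932 with several, and does not list 9160, which are unnamed here. Symbols were updated through Entrez identifiers against the RefSeq table of GRCm38.p6, in which 34741 were found. The probe set with the highest mean stood for a gene, which gave 18193 genes. KO was compared with WT with limma 3.58.1 in R 4.3.3 (lmFit, eBayes, 2-sided, no covariate, Benjamini-Hochberg over 45037 probe sets, threshold 0.05). The same fit was also run on simulated data. Its p-values set the KO minus WT difference against the spread between these livers, which were taken as independent mice. The labels do not say how the mice were sampled beyond their number. The alternatives, each tried alone, were a filter on dim probe sets, quantile normalization again, median centring, trended or robust variances, array weights, the replicate block, Xist or the set of replicates (1 and 2 against 3 and 4) as a covariate, the mean of a gene's probe sets, and each liver left out. Replicates 1 and 2 and replicates 3 and 4 were also fitted apart, since earlier results of these data set them apart, and no label calls them batches. The members and the gene lists were chosen with earlier results of these data known.

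All member probe sets are named, with the targeted gene, and of each list up to 4 genes past the threshold or the one with the lowest p. The 5 genes most like the members and the defining hepatocyte markers Alb and Apoa1 are named too. Trh is named as a mismatched list entry, and any other gene is said to be chosen after its values were seen.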

Additional observations from a re-analysis of the deposited data

Results flagged for a closer look

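In 2 of 30 groups of 4 livers tested with Dixon's criterion, 1 liver stood apart from the other 3, and both times it was KO 2. Chance alone marks about 1 in 20 groups. KO 2 read 3.14 for Vpreb1, against 3.72 to 3.84 in the other KO livers. It read 2.23 for Ebf1 by the dim probe set 1416302_at, against 2.62 to 2.68 in the other KO livers. Without KO 2 the difference of Vpreb1 was -0.51 (limma adjusted p 0.365).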

How the results depend on the processing

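The count of 0 member probe sets past the threshold was 1 within replicates 3 and 4 and 0 to 1 when 1 liver was left out, and the 1 was Ebf1 1416301_a_at each time. Other settings left it at 0, among them the filter on dim probe sets, which kept 8 of the 15. All probe sets past the threshold numbered 343, with 914 under array weights, 15 with the replicate block, 4 within replicates 1 and 2, and 9 to 489 when 1 liver was left out. The median difference of the members kept its sign, from -0.41 to -0.08 when 1 liver was left out. Signs turned for values near 0. Rag1 was -0.0165 after quantile normalization, -0.00725 after median centring, -0.000499 with array weights, -0.11 within replicates 3 and 4 and -0.0103 with Xist as a covariate. Pax5 1421765_at was 0.0220 with array weights, 0.0658 within replicates 3 and 4 and 0.0175 with Xist. Ebf1 1416302_at was 0.14 within replicates 1 and 2, and Igll1 1420177_at was -0.0319 within replicates 3 and 4. With 1 liver left out Rag1 ran from -0.15 to 0.17, Pax5 1421765_at from -0.053 to 0.0232, Cd79b from -0.32 to 0.11, Ebf1 1416302_at from -0.27 to 0.11 and Igll1 1420177_at from -0.0216 to 0.23. The cause of these turns was not tested.

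Same-numbered KO and WT livers did not deviate together in each pair (r of -0.003, 0.07, 0.19 and 0.32), and no label ties the numbers to litters, so the numbers were not used as pairs. KO 1 correlated best with WT 2 (0.22) and KO 2 with WT 1 (0.24), KO 4 correlated best with its own number, and KO 3 was alike with WT 3 (0.1865) and WT 4 (0.1872). With the replicate block 0 member probe sets passed, and the lowest adjusted p was that of Vpreb1, 0.0804.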
